A study of Mus musculus with 6 samples.

Results

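Colony-stimulating factors are secreted proteins that keep myeloid cells alive and drive their growth and maturation. The genes described here are 4 ligands (Csf1, Il34, Csf2 and Csf3) and 4 receptor chains (Csf1r, Csf2ra, Csf2rb and Csf2rb2), taken by gene symbol from the transcript tables. These are 8 of 54309 genes, and all 8 were found in each of the 6 libraries. Csf1 and Il34 encode the ligands of the tyrosine kinase receptor CSF1R, on which macrophages depend. Csf2 encodes GM-CSF, which binds the alpha chain encoded by Csf2ra and signals through the common beta chain encoded by Csf2rb. Csf3 encodes G-CSF, the growth factor of neutrophils, whose receptor gene Csf3r lies outside the 8 genes. In injured nerve, these factors are known for their part in the entry and survival of macrophages and neutrophils.

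RNA came from the distal portion of sciatic nerves on the left side of C57BL/6 mice aged 6 to 8 weeks, taken 24 h after surgery. The groups were 3 female and 3 male libraries with no other difference in strain, age, surgery or time in the labels, and each library pooled nerves of 2 animals. Labels name axotomy, the cutting of the nerve, for all 6 libraries, whereas the procedure recorded with them is exposure of the nerve without transection (sham), so the injury state is uncertain, and no unoperated nerve was analysed here. The study's stated question was which transcripts differ between the sexes after axotomy.

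Libraries held 55272138 to 77610593 estimated reads. Schwann cell, fibroblast and perineurial markers were present in every library, as a nerve should show. Skeletal muscle markers summed to 1344 CPM (read counts scaled to library size with edgeR's TMM factors) in female 2 and 721 CPM in male 1, against 4.20 to 18.5 CPM in the other 4 libraries. Across 19129 genes tested by edgeR's quasi-likelihood test, 3 passed an adjusted p under 0.05 as higher in female nerves (0.0157%) and 18 as higher in male nerves (0.0941%). The labels name separate pools of animals but no batch.

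Some sequences show what the read estimates can and cannot separate. Positions are from GENCODE M21 (GRCm38). The sources used here do not name the annotation behind the deposited tables, but all 40 transcripts of the 8 genes were found in M21 by name and with the same length. Csf1 lies on chromosome 3 (107741048 to 107760469, minus strand). Its main transcript Csf1-201 and the shorter Csf1-202 differ at the start of exon 6, where Csf1-202 skips 885 bases (295 codons). The coding length is 1656 bases in Csf1-201 and 771 bases in Csf1-202, and the form with the short exon 6 is known as the cell-surface form of CSF1. Both junctions are shown with 45 bases on either side, the end of exon 5 in lower case and the start of exon 6 in capitals:
Csf1-201: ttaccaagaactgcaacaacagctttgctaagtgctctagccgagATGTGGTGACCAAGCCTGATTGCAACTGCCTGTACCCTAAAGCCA
Csf1-202: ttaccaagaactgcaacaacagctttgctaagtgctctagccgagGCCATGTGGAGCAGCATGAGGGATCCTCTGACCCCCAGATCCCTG

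Csf2rb and Csf2rb2 are neighbours on chromosome 15, Csf2rb at 78325752 to 78353847 on the plus strand and Csf2rb2 at 78282507 to 78305721 on the minus strand. Csf2rb encodes the common beta chain, and Csf2rb2 a mouse beta chain that serves the IL-3 receptor. Their main transcripts are 93.7% identical over 4519 aligned bases. Of the 31-base words of Csf2rb, 28.9% over the whole transcript and 39.6% over the coding sequence also occur in Csf2rb2. The level of each gene is therefore partly an estimate of how shared reads divide. Exon 11 and exon 13 are shown because they are the least and the most alike of the 8 exons compared, those wholly coding and of equal length in both genes; capitals mark the bases that differ. Exon 11 (chr15:78346383-78346473 in Csf2rb and chr15:78286973-78287063 in Csf2rb2) differs at 11 of 91 bases, and exon 13 (chr15:78347374-78347477 and chr15:78285980-78286083) at 1 of 104:
Csf2rb exon 11: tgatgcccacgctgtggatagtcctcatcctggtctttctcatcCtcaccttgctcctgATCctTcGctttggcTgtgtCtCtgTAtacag
Csf2rb2 exon 11: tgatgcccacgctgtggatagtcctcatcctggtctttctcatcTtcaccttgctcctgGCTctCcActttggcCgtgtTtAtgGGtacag
Csf2rb exon 13: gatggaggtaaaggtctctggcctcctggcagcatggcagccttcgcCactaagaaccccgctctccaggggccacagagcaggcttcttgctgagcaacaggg
Csf2rb2 exon 13: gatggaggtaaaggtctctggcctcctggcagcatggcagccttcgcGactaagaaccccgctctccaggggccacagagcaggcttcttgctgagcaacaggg

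Csf1r had the highest mean TPM of the 8 genes, and the CSF1R ligands Csf1 and Il34 were far more abundant than Csf3 and Csf2. Levels between genes are compared in TPM, which is scaled by transcript length and library. Over 6 libraries the mean TPM of protein-coding transcripts was 173 for Csf1r, 76.4 for Csf1, 57.6 for Csf2rb, 35.6 for Csf2ra, 33.2 for Csf2rb2, 27.6 for Il34, 5.21 for Csf3 and 0.181 for Csf2. Csf1r was above Csf1 in 6 of 6 libraries, although the ranges of Csf1r (86.2 to 240.4 TPM) and Csf1 (61.4 to 97.7 TPM) overlapped. Neighbours from Csf1 to Csf2rb and from Csf2ra through Csf2rb2 to Il34 also had overlapping ranges. Csf2ra at 31.1 to 38.98 TPM lay below Csf2rb at 44.2 to 67.5 TPM without overlap, and so did Csf3 below Il34 and Csf2 below Csf3.

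**Figure D1:**
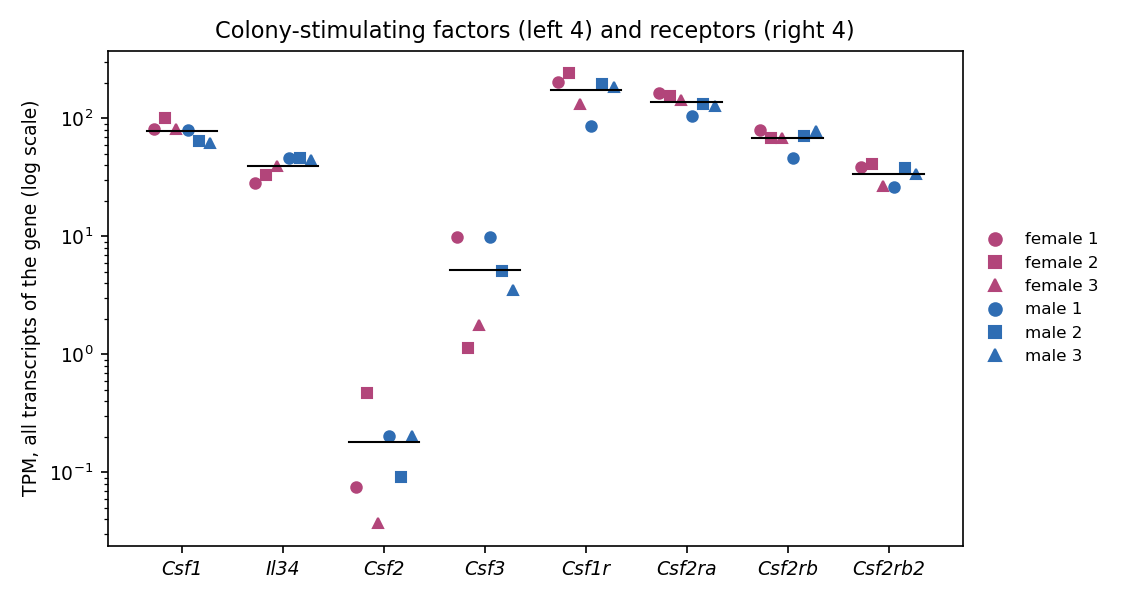
TPM of all transcripts of each gene (log scale) in the 3 female (red) and 3 male (blue) libraries, with the symbol shape giving the library number and the black line the mean of 6. Csf2 lies below 0.5 TPM in every library and Csf3 spans 1.14 to 9.91 TPM, while the 4 receptor genes lie between 26.2 and 242 TPM.

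The place of Csf2ra depended on which transcripts were counted. With all 8 annotated transcripts summed, Csf2ra had a mean of 138 TPM, above Csf1 (78.3 TPM) in 6 of 6 libraries. Its 2 protein-coding transcripts made up 23.1% to 33.0% of that TPM and 46.6% to 56.8% of its reads. Retained-intron transcripts held 32.5% to 37.3% of the reads, and processed transcripts without a coding sequence 8.34% to 17.5%. Short transcripts weigh more in TPM than in reads, since TPM divides by length. For Il34, noncoding transcripts held 4.26% to 5.84% of the reads and 24.7% to 33.3% of the TPM. Csf1r had few noncoding reads, with protein-coding transcripts at 99.4% to 99.9% of its reads. Among its coding transcripts, however, the short Csf1r-205 of 416 bases held 2.03% of the reads or less and 55.2, 72.3 and 23.6 TPM in the females and 0, 55.2 and 53.3 TPM in the males, up to 29.9% of the TPM of the gene. The main transcript Csf1r-201 alone was at 147, 167 and 106 TPM in the females and 85.1, 139 and 130 TPM in the males, so male 1 stood less far below the rest than in the summed TPM. Csf1r-201 at a mean of 129 TPM remained above the main transcripts of the other 7 genes in every library.

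**Figure D2:**
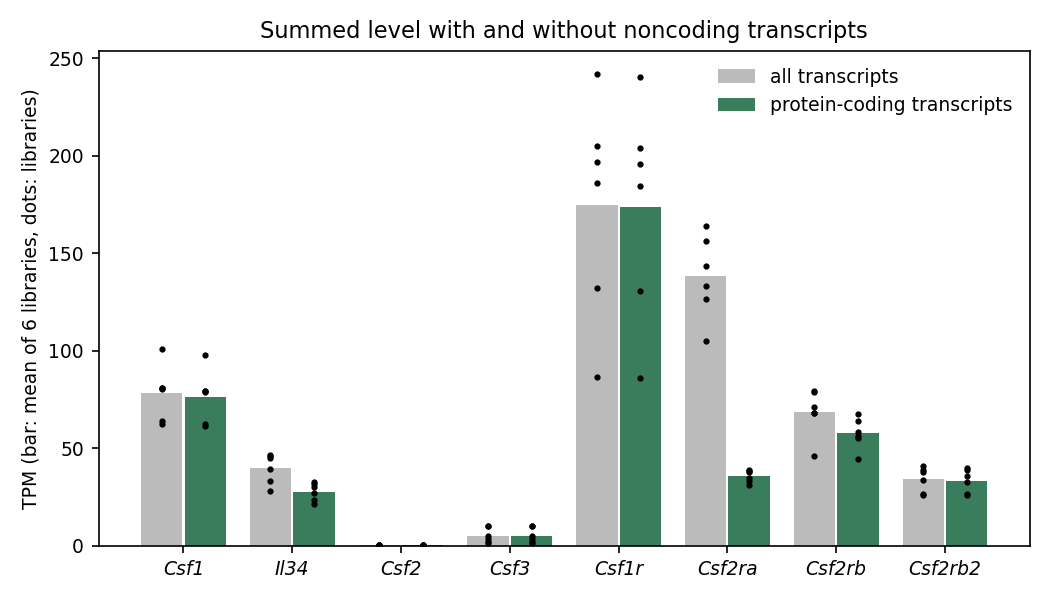
Mean TPM over 6 libraries (bars, linear axis from 0) with each library as a dot, for all transcripts (grey) and protein-coding transcripts (green) of each gene. Csf2ra falls from 138 to 35.6 TPM when noncoding transcripts are left out, and Csf1r moves only from 175 to 173 TPM.

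Csf1, the broadly made ligand of CSF1R, was the most abundant ligand. Its TPM was 81.1, 100.8 and 80.9 in the female libraries, numbered 1 to 3 here and below, and 80.5, 64.2 and 62.3 in the male ones. Female 2 was the highest library, and males 2 and 3 the lowest. Every female TPM lay above every male TPM, though female 3 and male 1 were nearly level (exact two-sided permutation test p = 0.1, the smallest that 3 against 3 allows). In CPM, which is not scaled by length, Csf1 was at 191, 241 and 202 in females and 215, 156 and 151 in males, so male 1 lay within the female range. Its log2 fold change (female minus male) was 0.28 (SE 0.15, 95% interval -0.08 to 0.64), with an edgeR adjusted p of 0.460, which missed the threshold.

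Il34, the other ligand of CSF1R, known from neurons and keratinocytes and a growth factor of tissue macrophages, was lower in every female library than in any male one. Its CPM was 25.0, 27.5 and 32.2 in females and 40.7, 37.3 and 34.2 in males. In TPM it was 28.3, 33.2 and 39.4 in females and 46.3, 46.1 and 44.8 in males, so the males were close together and the females spread. The log2 fold change was -0.41 (SE 0.11, 95% interval -0.66 to -0.15). This missed the threshold in edgeR's test (unadjusted p 0.00628, adjusted p 0.181), with a p that ranked 661 among 19129 genes. DESeq2 gave an adjusted p of 0.0424 for Il34, and over all 16 alternative fits the adjusted p ran from 0.0424 to 0.437. In the whole table, 11.5% of genes had every female CPM below every male CPM and 9.65% had the reverse. Il34 was the 1 gene of 7 tested that separated in either direction in CPM.

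Summed Schwann cell and summed fibroblast markers were, like Il34, lower in every female library than in any male one. All 5 Schwann cell markers were lower in every female library, with a summed level of 7127 to 11292 CPM in females and 15366 to 20340 CPM in males. Fibroblast markers summed to 3765 to 4517 CPM in females and 5292 to 6514 CPM in males, with 3 of 5 markers separated. Of the fibroblast markers that overlapped, Pdgfra went the other way (log2 fold change 0.07) and Pi16 was at -0.56 (SE 0.59). Perineurial markers ran from 642 to 815 CPM in females and from 800.1 to 895 CPM in males. Fewer cells of a type and less RNA per cell cannot be told apart in bulk tissue. Set against the summed Schwann cell markers, a ratio chosen after the values were seen, the direction of Il34 turned. Il34 per 1000 CPM of Schwann cell markers was 3.09, 3.86 and 2.85 CPM in females and 2.00, 2.41 and 2.22 CPM in males. Per 1000 CPM of fibroblast markers it was 6.64, 7.14 and 7.13 CPM in females and 7.70, 6.62 and 5.24 CPM in males, and the sexes overlapped. Per 1000 CPM of perineurial markers Il34 stayed mostly lower in females, at 36.6, 42.9 and 39.5 CPM against 45.5, 45.4 and 42.7 CPM in males, with female 2 above male 3. The part of these cell types in the Il34 difference was not tested.

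In TPM every female library was above every male one for Csf1 and below every male one for Il34, as given above. A separated Il34 share of their summed TPM, with its exact p, follows from this and is no further support. Il34 took 25.8%, 24.8% and 32.8% of the summed TPM of Csf1 and Il34 in females, and 36.5%, 41.8% and 41.8% in males. Every female share was lower than every male one, with a difference of -12.3 percentage points (27.8% ± 4.34 against 40.1% ± 3.07, SD, n = 3 each, exact permutation p = 0.1). In reads rather than TPM the shares were smaller, at 10.3% to 13.8% in females and 15.9% to 19.3% in males, and remained separated with a difference of -6.02 points. The design cannot reach a p below 0.1 for such a share. Both measures count noncoding transcripts too. These held 24.7% to 33.3% of Il34 TPM and 1.49% to 3.05% of Csf1 TPM. With coding transcripts alone, Il34 would thus take a lower share of the TPM.

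**Figure D3:**
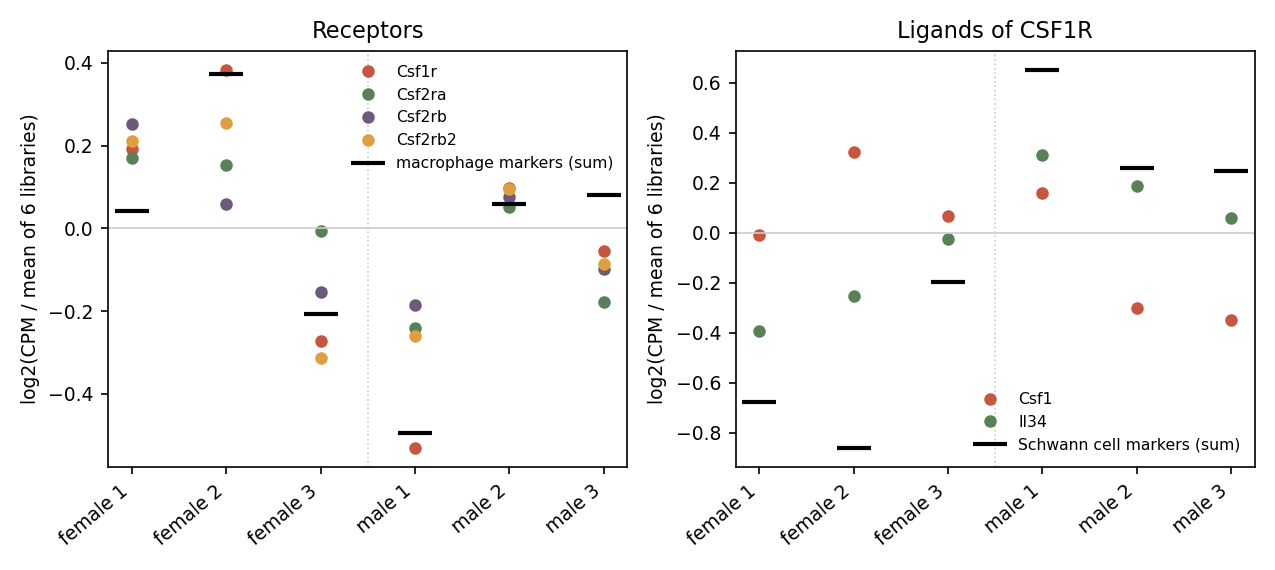
Level of each gene as log2 of its CPM over the mean of 6 libraries, for receptor genes beside summed macrophage markers (left) and for Csf1 and Il34 beside summed Schwann cell markers (right). Il34 and the Schwann cell markers are below 0 in all females and above 0 in all males, and Csf1r and the macrophage markers are lowest in male 1 and highest in female 2.

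Csf2 was close to absent from these libraries. Its reads numbered 2, 11 and 1 in the females and 6, 2 and 4 in the males, or 26 in all (exact 95% Poisson interval 17.0 to 38.1, counting error only). Female 2 held the most reads, and the rest held 6 or fewer. The low-count filter removed Csf2, so it has no fold change here. Its TPM overlapped between the sexes (0.195 ± 0.241 in females and 0.166 ± 0.0647 in males, SD, n = 3 each, exact permutation p = 1.0). Both chains of its receptor were far more abundant, as given above.

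Csf3 was low and the most uneven of the genes tested. Its CPM was 8.11, 0.916 and 1.44 in the females and 8.49, 4.12 and 2.75 in the males. Female 1 and male 1 were alike and high, females 2 and 3 were low, and the highest library stood 9.27-fold above the lowest. These levels rest on 63 to 638 reads per library, so counting error is small beside the spread. The log2 fold change of -0.56 (SE 0.94, 95% interval -2.93 to 1.81, edgeR adjusted p 0.835) became -2.12 without female 1, 0.02 without male 1, -0.11 without female 2, -0.19 without female 3 and 0.47 without female 2 and male 1, so its direction rests on single libraries. Il6, a cytokine gene made on similar inflammatory signals, was also uneven, at 32.9, 10.4 and 15.1 CPM in females and 45.2, 16.2 and 34.6 CPM in males. Keratinocyte markers summed to 29.7 CPM in female 1 and to 1.52 to 2.21 CPM in the other libraries, so female 1 but not male 1 carried them beside its high Csf3. Their part in the Csf3 levels was not tested.

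Csf1r, on chromosome 18, encodes the receptor of CSF1 and IL-34 and is a standard marker of macrophages and monocytes. Its TPM over all transcripts was 205, 242 and 132 in the females and 86.6, 197 and 186 in the males. On this measure it had the highest mean of the 8 genes but lay above Csf2ra in 4 of 6 libraries. Male 1 was the lowest library and female 2 the highest, and the sexes overlapped. In CPM it was 433, 495 and 314 in females and 263, 406 and 365 in males. The log2 fold change was 0.27 (SE 0.21, 95% interval -0.24 to 0.77, edgeR adjusted p 0.619), and -0.04 with female 2 and male 1 left out.

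Csf1r and the macrophage markers were both highest in female 2 and lowest in male 1, while male 3 had the marker sum next below female 2 and a Csf1r level below the mean. The 12 markers, all kept by the filter, summed to 2948, 3706 and 2480 CPM in females and 2031, 2985 and 3030 CPM in males, and none passed the threshold by edgeR or DESeq2 (0 at an unadjusted p under 0.05). Csf1r per 1000 CPM of these markers, a ratio in reads, lay between 120 and 147 CPM in all 6 libraries. As a ratio of TPM it was 0.0769, 0.0708 and 0.0612 in females and 0.0483, 0.0742 and 0.0676 in males (exact permutation p = 0.6), with the low value of male 1 in the library that had no Csf1r-205 reads. The ligand-to-receptor ratio was less even. Csf1 TPM per Csf1r TPM was 0.396, 0.417 and 0.613 in females and 0.930, 0.326 and 0.336 in males (exact permutation p = 1.0), with male 1, the library lowest in Csf1r, at the top. With the main transcripts alone, which leaves out Csf1r-205, Csf1-201 per Csf1r-201 was 0.332, 0.366 and 0.510 in females and 0.580, 0.293 and 0.326 in males, and male 1 was again the highest.

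Csf2ra encodes the chain that binds GM-CSF. Its CPM was 96.9, 95.7 and 85.8 in the females and 72.9, 89.2 and 76.1 in the males. Male 2 lay above female 3, so the sexes overlapped in CPM, while in TPM (144 to 164 in females, 105 to 133 in males) they did not. The log2 fold change was 0.22 (SE 0.09, 95% interval 0.01 to 0.44), with an unadjusted p of 0.0451 and an edgeR adjusted p of 0.332. A short noncoding transcript of 654 bases, Csf2ra-203, was also higher as a share in every female library. It took 12.3%, 14.5% and 14.2% of the gene's reads in females and 5.93%, 12.1% and 12.1% in males. Protein-coding Csf2ra alone was at 38.1, 38.98 and 33.1 TPM in females and 34.7, 37.9 and 31.1 TPM in males, which overlapped.

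For both beta chain genes the sexes overlapped in CPM. Csf2rb was at 216, 189 and 163 CPM in the females and 159, 191 and 169 CPM in the males. Its log2 fold change was 0.13 (SE 0.12, 95% interval -0.15 to 0.40, edgeR adjusted p 0.664), and 0.021 without female 1. The CPM of Csf2rb2 was 124, 127 and 86.0 in females and 89.3, 114 and 101 in males, with female 3 and male 1 the lowest. Its log2 fold change was 0.15 (SE 0.16, 95% interval -0.23 to 0.53, edgeR adjusted p 0.721), and -0.03 with female 2 and male 1 left out. Since part of the sequence is shared by both genes, as given above, the split between these genes is uncertain. Csf2rb2 took 36.5%, 40.3% and 34.6% of the reads of both genes in females and 35.9%, 37.4% and 37.3% in males (exact permutation p = 0.9).

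**Figure D4:**
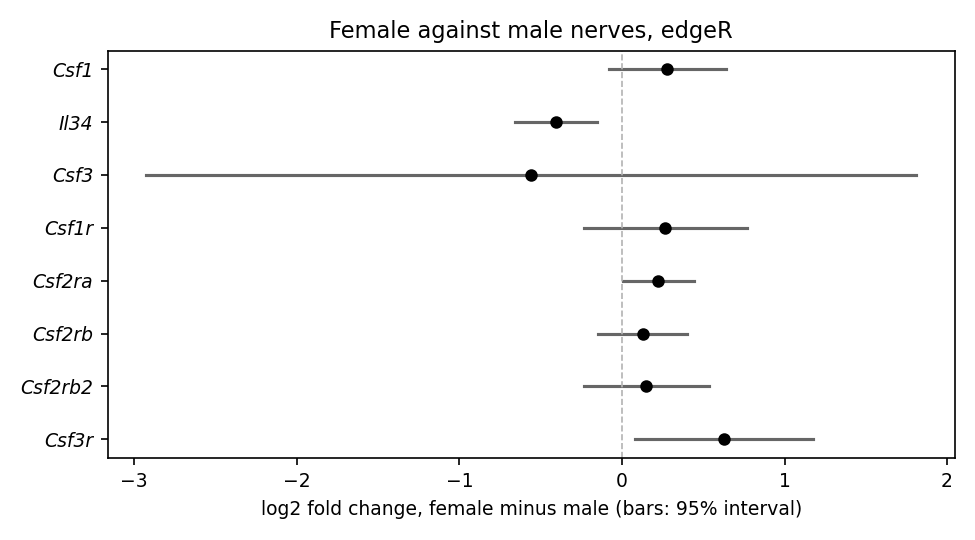
Log2 fold change (female minus male) by edgeR for the 7 genes tested and for Csf3r, with 95% intervals. Il34 at -0.41 and Csf2ra at 0.22 have intervals that leave out 0 before adjustment, none of the genes passed after adjustment over 19129 genes, and Csf3 has the widest interval.

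None of the 7 genes tested passed the threshold in either direction, against 0.0157% and 0.0941% of all genes tested. By edgeR 2 of them, Il34 and Csf2ra, had an unadjusted p under 0.05, as did 14.6% of all genes (2784 of 19129), and DESeq2 called 1, Il34, as it did 4.79% of all genes (839 of 17517). Of the 7, 5 had a log2 fold change above 0 and 2 below, with a median of 0.15, beside a median of 0.02 over all genes. Not passing does not show that levels were equal, since on simulated counts the test called 18.2% of genes given a log2 change of 0.5. All 4 receptor genes were above their 6-library mean CPM in females 1 and 2 and in male 2, and below it in female 3 and in males 1 and 3.

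Promoter sequence was at hand for 4 of the 8 genes (Csf1, Csf2, Csf2ra and Csf2rb2), from RefSeq on GRCm38.p6. It was searched over the 250 bases before each RefSeq start. For Csf2 this window (chr11:54249900-54250149, minus strand) lies upstream of the GENCODE M21 start at 54249667. The bases just before that start were therefore not searched, and absence of a motif from the Csf2 window does not cover them. PU.1, the factor encoded by Spi1 and known to act on myeloid receptor genes, binds sites with the core GAGGAA. On either strand GAGGAA was present in the Csf2ra and Csf2rb2 windows and not in those of Csf1 and Csf2, and 23.25% of 32851 promoters hold it in a window of that length. Matches begin at -14 and -8 in Csf2ra and at -167 in Csf2rb2, the last as TTCCTC on the strand shown. The AP-1 motif TGANTCA was in none of the 4 windows and in 6.749% of all promoters. The windows of Csf2ra and Csf2rb2, which lay on the same side of their means in every library, are shown with matches in capitals (Csf2ra chr19:61228419-61228668 and Csf2rb2 chr15:78305722-78305971, both minus strand). A match to these letters does not show that the factor binds there:
Csf2ra: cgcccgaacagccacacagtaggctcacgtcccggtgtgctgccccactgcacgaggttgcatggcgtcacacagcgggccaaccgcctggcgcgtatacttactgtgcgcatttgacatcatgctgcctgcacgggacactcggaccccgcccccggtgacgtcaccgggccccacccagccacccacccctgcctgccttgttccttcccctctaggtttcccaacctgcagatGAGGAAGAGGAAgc
Csf2rb2: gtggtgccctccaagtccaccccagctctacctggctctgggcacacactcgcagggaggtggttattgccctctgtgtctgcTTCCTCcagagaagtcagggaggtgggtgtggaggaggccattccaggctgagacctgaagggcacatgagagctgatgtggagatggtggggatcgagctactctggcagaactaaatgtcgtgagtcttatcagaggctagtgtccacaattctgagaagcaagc

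Shares of single transcripts were compared within each gene. Of 23 transcripts of these genes with a mean share of 1% to 99% of their gene's reads, 2 separated with the females above the males and 2 with the females below, where 6.17% and 5.21% of 39839 transcripts in the whole table did so. The smallest adjusted p over the 23 was 0.575 by exact permutation tests. With 3 libraries a sex no transcript could pass, so these tests do not show that shares were alike. The cell-surface form Csf1-202, whose junction is printed above, took 17.7%, 15.4% and 12.1% of Csf1 reads in females and 22.1%, 15.7% and 14.2% in males (exact permutation p = 0.6). Csf1-201 took 72.8% to 80.4% in all libraries. Csf1-203, which encodes the same protein as Csf1-201 with another last exon, took 3.55% to 5.19%.

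Csf2rb-206 was 1 of the separated transcripts, whose number is close to the share in the whole table. Its share of Csf2rb reads was 4.01%, 2.20% and 6.91% in females and 8.68%, 9.95% and 14.9% in males, and the sexes did not overlap (exact permutation p = 0.1, adjusted p 0.575). Csf2rb-206 has the same coding sequence of 2688 bases as the main Csf2rb-201 and begins at another first exon of 158 bases (chr15:78325752-78325909), upstream of the first exon of Csf2rb-201. Only 159 of its 4870 words of 31 bases are not in Csf2rb-201, so its share rests on few informative reads. The other separated transcripts were Csf2ra-203, given above, Csf1-205 (1.06% to 1.49% in females, 0.537% to 0.940% in males) and Csf1r-202 (0.881% to 1.38% in females, 1.42% to 1.62% in males).

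**Figure D5:**
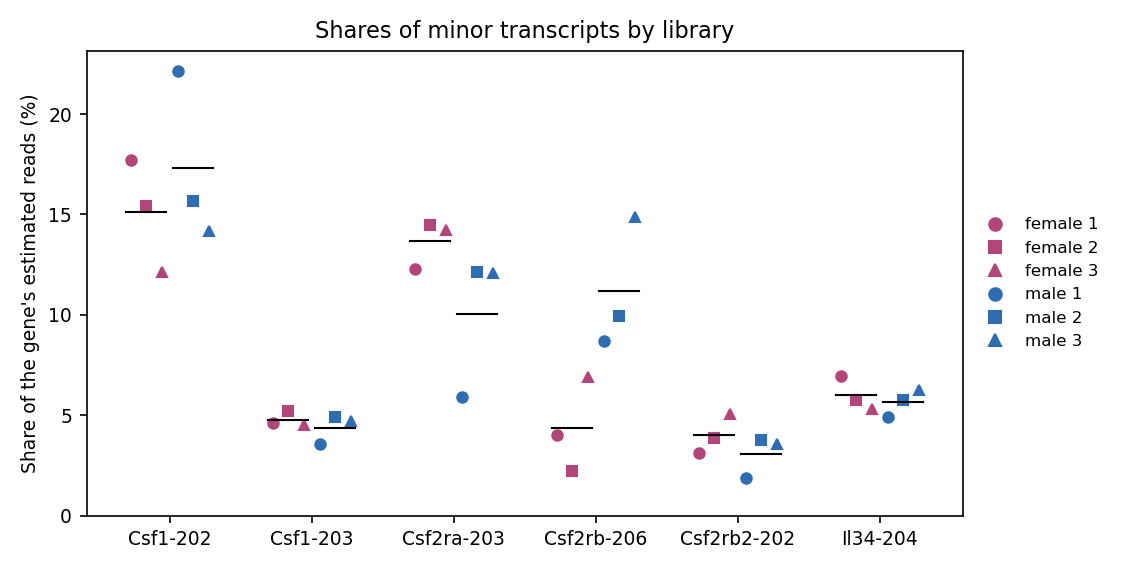
Share of the gene's estimated reads (percent, axis from 0) for 6 transcripts in each library, with black lines at the mean of each sex and symbols as in the plot of TPM levels. Csf2rb-206 is below 7% in the females and above 8.6% in the males, and Csf1-202 overlaps between the sexes.

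Of 7 other receptors and cytokines of the family, 5 were kept by the filter and none passed the threshold by edgeR (2 at an unadjusted p under 0.05, where 14.6% of all genes were) or DESeq2. Csf3r, the G-CSF receptor gene of neutrophils, was at 335, 267 and 415 CPM in females and 244, 257 and 157 CPM in males, so that the lowest female library lay above the highest male one. Its log2 fold change was 0.63 (SE 0.23, edgeR adjusted p 0.291). Neutrophil markers had a median log2 fold change of 0.50 and summed to 878 to 1589 CPM in females and 664 to 1291 CPM in males. Csf3r per 1000 CPM of these markers was 215, 304 and 261 CPM in females and 189, 255 and 236 CPM in males, which overlapped. Csf3r RNA thus stood far above the RNA of its ligand Csf3 in every library.

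For the beta chains' other partners, Il3 had 0 reads in every library, which allows up to 0.0543 CPM. Il5 had at most 0.109 CPM in any library. Il3ra, the IL-3 receptor alpha chain, had a mean of 13.9 CPM and a log2 fold change of 0.07, and Il5ra, the alpha chain for IL-5, had 1.34 CPM and -0.35. Ptprz1 and Sdc1 encode surface proteins known to bind IL-34. Sdc1 was at 90.7 to 100.1 CPM in all 6 libraries (log2 fold change -0.03), and Ptprz1 at 0.882 to 1.10 CPM in females and 1.24 to 1.53 CPM in males (-0.54, edgeR adjusted p 0.272).

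All 22 genes of signalling downstream of these receptors were kept by the filter. None passed the threshold by edgeR or DESeq2, and 4 had an unadjusted p under 0.05 by edgeR, a share near the 14.6% of all genes. Log2 fold changes were above 0 for 17 and below 0 for 5, with a median of 0.15. The 3 with the highest TPM were Tyrobp, an adaptor of myeloid receptors (0.18), Socs3, a feedback inhibitor of cytokine signalling (-0.27), and Spi1 (0.22). In 5 of the 22 genes every female CPM was above every male CPM, beside 9.65% of all genes. Among them was the myeloid Src kinase gene Fgr (0.34), chosen after its values were seen. Cish, a target of STAT5, is named outside the rule of highest TPM and had the lowest log2 fold change of the 22. It averaged 7.68 ± 1.89 CPM in the females and 10.8 ± 1.48 CPM in the males (SD, n = 3 each, log2 fold change -0.49, edgeR adjusted p 0.312). In CPM the sexes overlapped, with female 2 at 9.20 and male 2 at 9.16. In TPM every female library lay below every male one, with means of 3.39 and 4.73 (exact permutation p = 0.1).

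Among 12 inducers of colony-stimulating factors, 11 were kept by the filter and none passed by edgeR. At an unadjusted p under 0.05 there were 4, beside 14.6% of all genes, and DESeq2 called Tlr2 and Tnf, beside 4.79% of all genes. Log2 fold changes were above 0 for 8 and below 0 for 3, with a median of 0.23. Il1b, which drives Csf3 and Csf2 in many cell types, had a log2 fold change of 0.39, the adaptor gene Myd88 had 0.01 and Il6 had -0.72. Tlr2, a receptor of bacterial and damage signals chosen after its values were seen, was at 75.1, 78.1 and 61.3 CPM in females and 53.9, 57.9 and 49.2 CPM in males (log2 fold change 0.41, edgeR adjusted p 0.171). Il17a had 1 read or fewer in every library.

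Genes whose log2 CPM over the 6 libraries was most like that of each member are given with Pearson's r and no test, since all share the same libraries. For Il34 they were Cdadc1 (0.998), Sgce (0.996) and Frem2 (0.996). For Csf1 they were Fxr1 (0.983), Cd80 (0.974) and Rnf25 (0.970), and for Csf3 they were Lsm2 (0.996), Nabp2 (0.987) and Actr1b (0.987). For Csf1r they were Gm15429, Vac14 and Wdr41 (each 0.997), and for Csf2ra they included Arhgap27 (0.994) and Parp1 (0.993). For Csf2rb they were Rab1a (0.996), Mis18a (0.995) and Umad1 (0.988), and for Csf2rb2 they were Cln6 (0.996), Erlin2 (0.991) and Def8 (0.991). With 6 libraries such values are common: 728 of 11918 genes had r above 0.9 with Il34, 460 with Csf1r and 64 with Csf1.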

How the data were processed

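The deposited tables hold, for each transcript of a library, its TPM and its estimated count of reads, per the file headers. Libraries were stranded and poly-A selected, from 500 ng of RNA (RIN 7.0 or more), read as pairs of 100 nt, per the labels' protocols. Trimmomatic 0.39, Salmon 1.5.2 and MultiQC 1.9 are named in the submitters' processing notes. The sources used here name neither the genome build nor the use of strand in counting.

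Estimated counts were summed per gene and rounded. Genes were filtered with filterByExpr, scaled by TMM and compared with edgeR 4.0.16 (quasi-likelihood, robust, no covariate, Benjamini-Hochberg over 19129 genes). Single values had exact two-sided permutation tests. Alternatives were other scalings, filters, a gene length offset, a block for the replicate number, left-out libraries, DESeq2 1.42.0 and limma 3.58.1 on log2(TPM + 1). On simulated counts, edgeR recovered 18.2%, 56.1% and 97.1% of genes changed by 0.5, 1 and 2 on the log2 scale in the female against male comparison of 19129 genes. Every pair of libraries of a sex differed beyond sampling noise (chi-square per degree of freedom 26.3 or more).

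The genes and lists were chosen with earlier results of these data known. Named were all 8 genes, the other family members, the 3 genes of highest mean TPM of each pathway list, and the 3 genes most like each of the 7 (log2 CPM, mean CPM of at least 5). The rule also named the 3 highest genes of each marker list; these are given within sums, and the 1 marker past the threshold by name. The result of a gene that the rule names is not reported here.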

Additional observations from a re-analysis of the deposited data

How the results depend on the processing

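Under 16 alternative fits, Csf1, Il34, Csf2ra, Csf2rb and Csf3r kept their direction. Reversals were Csf3 at 0.024 without male 1 (-2.12 to 0.024 over single left-out libraries), and, without female 2 and male 1, Csf3 at 0.47, Csf1r at -0.044 and Csf2rb2 at -0.034. DESeq2 called 1 of the 7 genes, Il34, and no other alternative called any. The count of all genes higher in female and in male nerves, 3 and 18 in the fit reported, was 44 and 147 with no filter, 216 and 623 by DESeq2, and 1 and 9 by limma on log2(TPM + 1). It ran from 0 to 17 and from 4 to 188 over single left-out libraries, with the highest values without female 3, and 6 genes were higher in females without female 2 and male 1. With the replicate number as a block the counts were 0 and 3. Same-numbered libraries showed no clear shared deviation (correlations of -0.0971, -0.189 and 0.0138), and only male 3 of 6 libraries was most like its own number. The labels name no batch, and so few libraries cannot decide whether same-numbered ones were handled together. The Il34 share difference was -6.02 points in reads against -12.3 in TPM, which divides by length as reads do not. For the counts and fold changes above, the cause of the shifts was not tested, except that fewer samples or genes enter some fits. Depth limits the genes with few reads (Csf2, Il3, Il5, Il17a).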

Other observations

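Other cell types were described by their own marker lists. Of 9 neutrophil markers none passed edgeR's threshold, 3 had an unadjusted p under 0.05 and DESeq2 called 1, Mmp8. Monocyte markers, 5 of 5 kept, summed to 1648 to 1944 CPM in females and 1450 to 1779 CPM in males, with a median log2 fold change of 0.04. Within them Chil3, which encodes a secreted chitinase-like protein (a gene picked with its values in view), was at 502, 358 and 343 CPM in females and 208, 228 and 161 CPM in males (1.01, edgeR adjusted p 0.127), and DESeq2 called it. Of 6 dendritic cell markers, 1 passed edgeR's threshold as higher in males, as did 0.0941% of all genes. It was Cd209a, a lectin gene of dendritic cells derived from monocytes, at 7.16, 8.90 and 7.92 CPM in females and 17.2, 19.8 and 22.7 CPM in males (log2 fold change -1.32, edgeR adjusted p 0.0163). Itgax, an integrin gene shared with macrophages and chosen after its values were seen, lay the other way, at 24.3, 27.1 and 26.5 CPM in females and 17.3, 22.7 and 17.4 CPM in males (0.44, edgeR adjusted p 0.183). DESeq2 called both. The dendritic cell markers summed to 57.5 to 61.4 CPM in females and 62.8 to 73.4 CPM in males. All 7 T and NK cell markers had log2 fold changes below 0 (median -1.06), with sums of 6.22 to 7.66 CPM in females and 10.3 to 15.8 CPM in males. None of them passed by edgeR, 6 had an unadjusted p under 0.05 (14.6% of all genes did), and DESeq2 called 3 (4.79% of all genes).

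Mast cell markers summed to 48.4 to 110.2 CPM in females and 68.7 to 109 CPM in males (median log2 fold change -0.22). Endothelial markers summed to 215 to 330 CPM in females and 239 to 281 CPM in males (0.18), and adipocyte markers to 201 to 689 CPM in females and 268 to 425 CPM in males (0.30). The perineurial median was -0.30, the fibroblast median -0.43, the Schwann cell median -0.83, the macrophage median 0.09 and the skeletal muscle median 0.80. Of 3 keratinocyte markers, 1 was kept by the filter (-0.22). No gene of the lists in this paragraph passed edgeR's threshold. At an unadjusted p under 0.05 there were 4 Schwann cell, 3 fibroblast, 1 perineurial and 1 endothelial marker, beside 14.6% of all genes, and DESeq2 called 3 Schwann cell and 2 fibroblast markers, beside 4.79% of all genes.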
